A study of Mus musculus with 79 samples.

Results

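The 10 genes described here encode the machinery that places or directs methylation of lysine 9 of histone H3 (H3K9) in mouse cells: the corepressor gene Trim28, the methyltransferase genes Setdb1, Ehmt1, Ehmt2, Suv39h1 and Suv39h2, the zinc finger genes Zfp57 and Zfp445, and Atrx and Daxx, whose products place the variant histone H3.3. They were chosen by symbol from a table of 35230 genes, and all 10 were found. The study sequenced RNA of embryonic stem cells (ESCs) of the mouse and of their differentiated progeny, in 79 libraries. The study used 4 lines. TET KO (labelled TET1/2/3_KO) lacks Tet1, Tet2 and Tet3, whose products oxidise methylated cytosine, and TET WT is the wild-type line it was made from. DNMT KO (labelled DNMT1/3a/3b_KO) lacks the DNA methyltransferase genes Dnmt1, Dnmt3a and Dnmt3b, and DNMT WT is its own wild-type parent. Every line was sampled as ESCs in 2i/LIF medium at day 0 (ESC D0), as epiblast-like cells on days 1 and 2 (EpiLC D1 and EpiLC D2), and as embryoid bodies, which are aggregates that form several lineages, on days 2, 4, 6 and 8 (EB D2 to EB D8). Of the 28 groups, 23 held 3 libraries, and 5 held 2: TET KO and DNMT KO at EB D2, and DNMT WT as ESCs, on EpiLC D1 and on EB D4.

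In the best-known route to H3K9 methylation in ESCs, KRAB zinc finger proteins bind DNA and recruit TRIM28, which in turn brings in SETDB1 to trimethylate H3K9, chiefly over retrotransposons and imprinted control regions. ZFP57 and ZFP445 are the zinc finger proteins known for holding the methylation of imprinted control regions; ZFP57 binds its TGCCGC motif when the CG within it is methylated. ATRX and DAXX place the variant histone H3.3 in heterochromatin, EHMT1 and EHMT2 work together to mono- and dimethylate H3K9 in euchromatin, and SUV39H1 and SUV39H2 trimethylate it around centromeres.

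Levels are RPKM (reads scaled to gene length and library depth). Depth recovered from the deposited values was 7.76 to 13.89 M reads per library, and the 10 genes were covered by between 109 reads (Suv39h1) and 31958 reads (Trim28) in a library. A change is a difference of log2(RPKM + 0.5), knockout minus parental line unless stated. A gene is said to have risen, fallen or been called where limma gave a Benjamini-Hochberg adjusted p under 0.05 over 15267 genes and the change was at least 0.5 in size; all 10 genes were among those tested, with at least 1 RPKM in each of the 79 libraries. All adjusted p-values are limma's, and since no label ties replicates to separate cultures, they measure only the spread between these samples. Each genotype was 1 line, so the deletion and other differences between lines cannot be told apart, and in bulk RNA fewer cells of a type and less RNA per cell cannot be told apart. The effect of a deletion is used below only as a name for the change between a knockout line and its parental line. Among the targeted genes, Dnmt1 reached at most 6.49 RPKM in a DNMT KO library and at least 39.4 in a DNMT WT library. TET KO and TET WT libraries overlapped in each Tet gene. Within conditions, TET KO had some of the 6 targeted genes (3 Tet and 3 Dnmt) called lower than in TET WT. These were 2 in the ESCs, 4 and 1 on EpiLC days 1 and 2, and 2, 3 and 1 on EB days 2, 4 and 6. Called higher were 1 at EB D2 and 2 at EB D8. Which exons were deleted was not given. The label of the ESCs was matched by 5 naive markers (Nanog, Esrrb, Klf4, Tfcp2l1 and Zfp42), which summed to 1080 to 1210 RPKM at ESC D0 and 74.5 to 336 at EpiLC D2. Replicate 2 of TET WT on EB D4 stood apart, with 12.2% of its reads in Gm42418, and the values that rest on it are given with and without it. When libraries were centred on their medians, the median change over tested genes shifted in TET KO by -0.125 in the ESCs, 0.115 on EpiLC D1, and -0.298, -0.109 and -0.159 on EB days 4, 6 and 8; calls between a knockout and its parental line that centring ends are named beside the value.

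The genes with the widest range over the 28 groups were Suv39h1, Zfp57 and Trim28. Suv39h1 spanned 18.7-fold, from 1.96 ± 0.0209 RPKM (SD, n = 2) in DNMT WT at ESC D0 to 36.6 ± 0.827 (n = 3) in the same line at EB D6. Zfp57 spanned 12.5-fold, from 8.48 ± 0.378 in TET KO at EB D6 to 106 ± 5.79 in TET KO at ESC D0. Trim28 spanned 5.23-fold, from 114 ± 20.9 in TET KO at EpiLC D2 to 596 ± 51 in DNMT WT at EpiLC D1. On the log2 scale these ranges were 3.92, 3.57 and 2.39, wider than in 90.9%, 87.8% and 65.2% of tested genes, whose median range was 1.98. The other 7 genes had ranges between 1.08 (Zfp445) and 1.79 (Daxx), all below that median.

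Since the knockouts remove the enzymes that write or oxidise methylated CG, the start regions of the 2 most variable genes are shown, taken from RefSeq on GRCm38.p6 and written 5′ to 3′ on the gene's strand with each CG in capitals. Each window runs from 250 bases before an annotated start to 50 after it. Zfp57 (ENSMUSG00000036036, chromosome 17:37001163-37010635, plus strand) has 3 such starts, with 6, 9 and 4 CG, and the first at chr17:37000913-37001212 and the second at chr17:37002275-37002574 are printed. Suv39h1 (ENSMUSG00000039231, chromosome X:8061171-8074760, minus strand) has 2 starts, at chrX:8074312-8074611 with 37 CG and at chrX:8074711-8075010 with 15.
Zfp57, first start: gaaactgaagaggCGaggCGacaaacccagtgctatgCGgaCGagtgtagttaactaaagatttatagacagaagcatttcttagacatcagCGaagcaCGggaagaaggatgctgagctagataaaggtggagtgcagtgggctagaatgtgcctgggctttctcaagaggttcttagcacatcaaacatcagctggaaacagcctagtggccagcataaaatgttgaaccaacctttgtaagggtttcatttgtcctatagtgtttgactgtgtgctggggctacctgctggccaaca
Zfp57, second start: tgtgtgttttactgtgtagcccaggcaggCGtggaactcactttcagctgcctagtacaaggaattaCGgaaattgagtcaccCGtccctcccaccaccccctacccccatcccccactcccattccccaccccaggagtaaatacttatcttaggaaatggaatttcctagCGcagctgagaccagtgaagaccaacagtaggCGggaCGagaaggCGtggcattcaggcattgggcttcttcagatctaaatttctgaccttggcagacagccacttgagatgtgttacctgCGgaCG
Suv39h1, first start listed: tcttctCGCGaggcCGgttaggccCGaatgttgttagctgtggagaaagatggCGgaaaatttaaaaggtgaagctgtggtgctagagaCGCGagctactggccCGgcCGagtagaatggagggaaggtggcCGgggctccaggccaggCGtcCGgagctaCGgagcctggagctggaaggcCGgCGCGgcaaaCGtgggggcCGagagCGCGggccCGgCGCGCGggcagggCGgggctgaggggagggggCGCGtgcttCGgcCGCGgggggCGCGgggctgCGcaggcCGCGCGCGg
Suv39h1, second start listed: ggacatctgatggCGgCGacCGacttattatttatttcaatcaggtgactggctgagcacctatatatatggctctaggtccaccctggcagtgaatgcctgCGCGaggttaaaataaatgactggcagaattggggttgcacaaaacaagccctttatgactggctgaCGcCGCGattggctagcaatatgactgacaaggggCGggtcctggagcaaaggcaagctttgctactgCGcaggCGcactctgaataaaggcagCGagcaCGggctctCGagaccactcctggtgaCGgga
The median over 32851 windows of this length was 7 CG, and 94.6% held at least 1. The window of Suv39h1 with 37 CG was as rich or richer than 95% of them, while the 6 CG of the first Zfp57 start lay near the middle of the distribution, with 47.9% of windows holding that many or fewer. Over the 16 windows of the 10 genes the count ran from 4 (the remaining Zfp57 start) to 40 (a start of Ehmt2). The ZFP57 hexamer TGCCGC, searched on both strands, was in 3 of the 16 windows, those of Ehmt2, Suv39h1 and Trim28, and in 11.6% of all windows; a match of letters is a description and not a binding site.

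**Figure D1:**
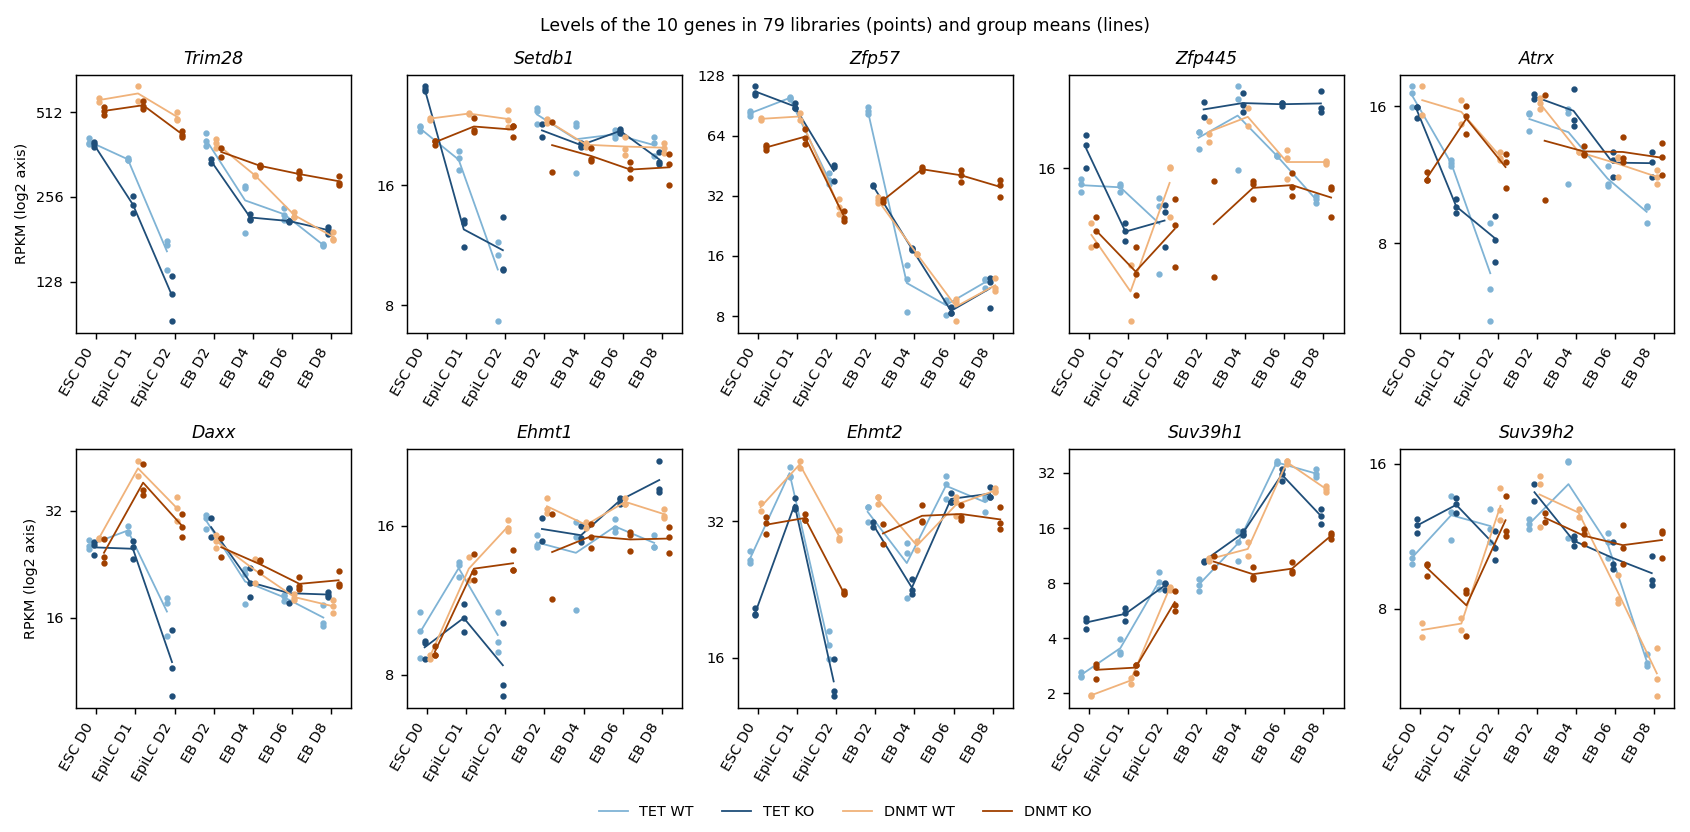
RPKM on a log2 axis of each of the 10 genes, 1 panel per gene, in the 79 libraries (points) with lines through the group means of the 4 lines; the x axis lists ESC D0, the EpiLC days and the EB days, and the line is broken between the EpiLC and EB courses. In the Zfp57 panel the DNMT KO points stay between 31.6 and 44.5 RPKM from EB D4 to EB D8 while those of the other lines lie at 17.6 or below.

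Against the parental line, TET KO had 10 calls in the 70 tests of a member gene at a condition, 5 higher and 5 lower, where 25.9% of all tests over 15267 genes were called (16.3% higher and 9.57% lower). In DNMT KO 9 of 70 were called, 5 higher and 4 lower, beside 16.8% of all tests (9.43% higher and 7.37% lower). By condition, the share of all genes called in TET KO was 22.2% in the ESCs, 28.2% and 29.2% on EpiLC days 1 and 2, and 23.8%, 30.3%, 18.9% and 28.5% on EB days 2, 4, 6 and 8. In DNMT KO the same shares were 5.54%, 3.96%, 6.54%, 4.58%, 16.6%, 38.7% and 41.8%. Over the 7 conditions together, the members' share in TET KO was thus below that of all genes; it was largest at EpiLC D1 and EB D8, with 3 of 10 each, close to the share of all genes. After centring, 2 of the 70 tests in TET KO were called higher and 6 lower. In DNMT KO the members were called mostly late, 2 of 10 at EB D6 and 4 of 10 at EB D8, where the shares of all genes were 38.7% and 41.8%. A change of at least 2-fold was reached in 1 test in TET KO (Zfp57 at EB D2; 7.6% of all tests) and 4 in DNMT KO (Zfp57 on EB days 4, 6 and 8, and Suv39h1 on EB D6; 6.76% of all tests). The median change of the 10 genes in DNMT KO at EB D8 was -0.01, beside 0.01 for all tested genes, and in TET KO at EB D8 0.19 beside 0.11.

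**Figure D2:**
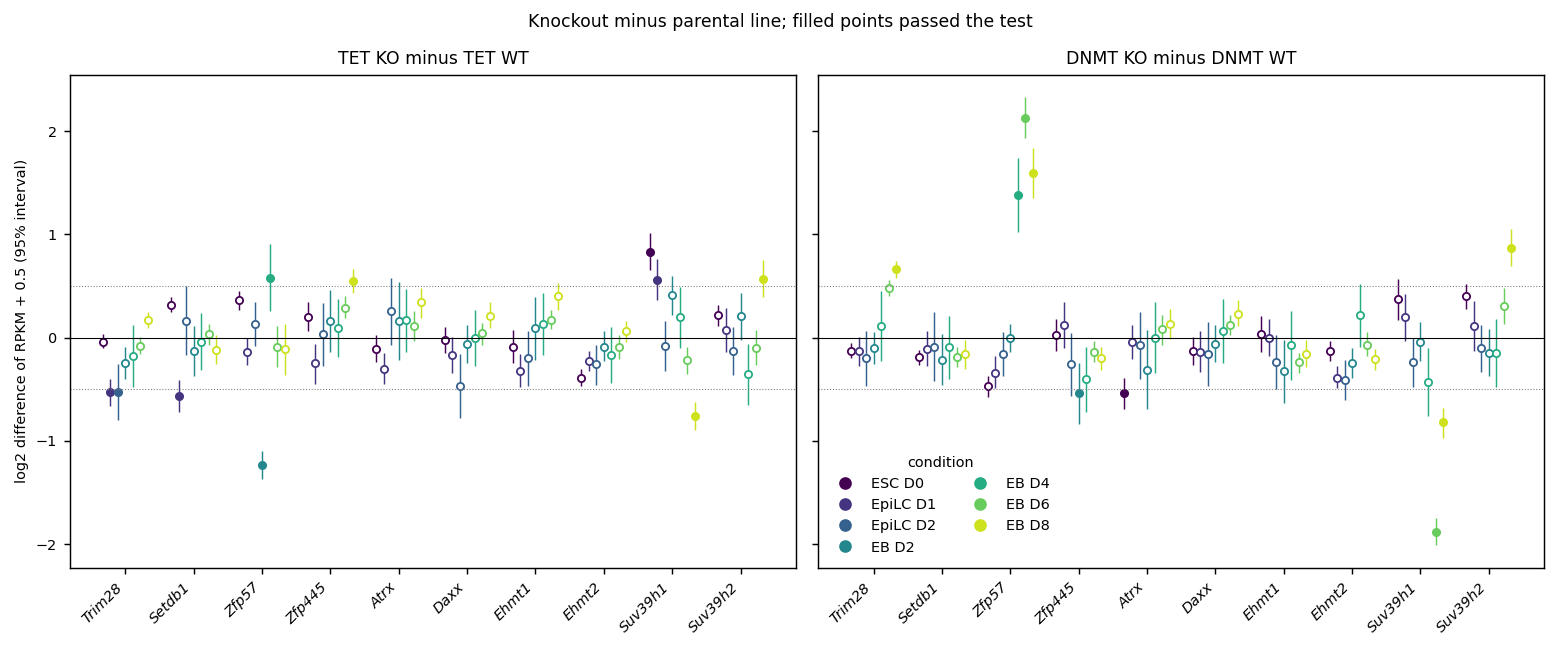
Change in log2(RPKM + 0.5) of each of the 10 genes, TET KO minus TET WT (left) and DNMT KO minus DNMT WT (right), with 95% intervals from limma; colours give the condition, filled points were called and dotted lines mark 0.5 in size. The largest values are those of Zfp57 (2.13) and Suv39h1 (-1.88) in DNMT KO at EB D6.

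Trim28 (ENSMUSG00000005566, chromosome 7:12999114-13031035), the corepressor through which the KRAB zinc finger proteins act, was the most abundant of the 10 genes in every library, by RPKM. In the late embryoid bodies it was higher in DNMT KO than in DNMT WT. At EB D8 the DNMT KO libraries read 286, 283 and 304 RPKM and the DNMT WT libraries 180, 192 and 181. All 3 knockout values lay above all 3 parental ones, and Trim28 was called higher (change 0.66, SE 0.04, adjusted p = 5.9e-09). At EB D6 the libraries also did not overlap (299, 315 and 311 against 217, 217 and 227 RPKM), but the change of 0.48 was below the size threshold. In TET KO, Trim28 fell in the epiblast-like cells, with 257, 225 and 239 RPKM against 346, 351 and 347 at EpiLC D1 (change -0.53, adjusted p = 3.76e-05). At EpiLC D2 the TET KO values of 116, 134 and 92.7 RPKM again lay below the TET WT values of 141, 178 and 173 (change -0.53, adjusted p = 0.00458). Both calls sat at the edge of the size threshold. The first ended after centring (-0.42) and without TET KO replicate 2 (-0.49), and the second after quantile normalization (-0.4) and without TET WT replicate 2 (-0.47), TET WT replicate 3 (-0.48) or TET KO replicate 3 (-0.39). The naive markers were also lower, summing at EpiLC D1 to 272 to 301 RPKM in the knockout and 553 to 566 in its parental line. At EpiLC D2 they summed to 115 to 136 and 250 to 336. The 4 formative and primed markers (Fgf5, Otx2, Pou3f1 and Sox3) summed at EpiLC D1 to 24 to 25.4 and 18.5 to 20.8 RPKM, with 0 called. At EpiLC D2 they were lower too, at 21 to 25.9 against 33.6 to 35.5, with 2 of 4 called. The part of either list was not tested.

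Setdb1 (ENSMUSG00000015697, chromosome 3:95323525-95357202) encodes the enzyme that TRIM28 recruits to trimethylate H3K9. It was called at 1 condition, in TET KO at EpiLC D1, where 12.9, 11.2 and 13.1 RPKM stood below 17.5, 19.5 and 18.7 in TET WT (change -0.57, adjusted p = 8.25e-05). That call ended after centring (-0.45), after quantile normalization (-0.41) and without TET KO replicate 2 (-0.5, just under the threshold). The ratio of Trim28 to Setdb1 within a library, which no scaling of libraries alters, was 24 ± 0.317 in DNMT WT at ESC D0 and 9.28 ± 0.404 at EB D8. In DNMT KO the same ratio went from 25.2 ± 0.571 to 16.5 ± 2.16.

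Zfp57, the zinc finger gene of imprint maintenance, was the member that stood highest above its parental level in DNMT KO, from day 4 of the embryoid bodies on. At EB D4 the DNMT KO libraries held 44.5, 43.3 and 42.5 RPKM and the DNMT WT libraries 16.4 and 16.3. At EB D6 the values were 40.6, 43.2 and 37.7 against 9.43, 9.78 and 7.54, and at EB D8 36.3, 38.4 and 31.6 against 11.1, 12.4 and 10.7. At each of these days every knockout library exceeded every parental library by more than 2-fold. The changes were 1.38 (SE 0.17, adjusted p = 1.48e-05), 2.13 (SE 0.09, adjusted p = 1.05e-09) and 1.59 (SE 0.11, adjusted p = 5.49e-08), which are 2.66-fold, 4.54-fold and 3.11-fold in mean RPKM. Before that, at EB D2, the lines were alike in value (29.9 and 30.8 RPKM against 30.4, 29.3 and 31.5; change 0, 95% interval -0.14 to 0.13). In the ESCs the order was the reverse, with 57.2, 54.2 and 55.9 RPKM in DNMT KO and 78.5 and 76.7 in DNMT WT, a change of -0.47 that was below the size threshold (adjusted p = 0.000151).

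Markers of undifferentiated cells and of several lineages also differed between the DNMT lines at these days. The summed level of the 5 naive markers in DNMT KO on EB days 4, 6 and 8 was 286 to 300, 321 to 335 and 313 to 323 RPKM, against 172 to 174, 26.3 to 29.8 and 18.3 to 20.4 in DNMT WT. Of these 5 genes, 4, 4 and 5 were called higher in the knockout on the 3 days, and none was under 0.1 RPKM in any group. The 4 formative and primed markers (Fgf5, Otx2, Pou3f1 and Sox3) were lower at EB D4, with 89.5 to 96.8 RPKM in sum against 170 to 175 and 2 of 4 called, and higher at EB D6 and EB D8, with 4 of 4 called on each day. The 4 blood markers (Hbb-bh1, Hba-x, Gata1 and Runx1) were the reverse: 3 of 4 were called higher in the knockout at EB D4, where they summed to 80.8 to 96.6 RPKM against 6.53 to 9.36, and 4 of 4 lower on both later days, with 88.9 to 101 RPKM against 4010 to 4050 at EB D8. Of the 3 endoderm markers (Ttr, Apoa1 and Rbp4), all 3 were called higher at EB D4 (6.85 to 7.46 RPKM against 1.32 to 2.76), 1 higher and 1 lower at EB D6, and all 3 lower at EB D8 (26.7 to 32.5 against 499 to 519). The 3 primitive streak markers (T, Mixl1 and Eomes) were all called lower at EB D4, 2 of 3 lower at EB D6 and 2 of 3 higher at EB D8. Of the 3 fibroblast markers (Col1a1, Col3a1 and Thy1), 2 were called lower on each of the 3 days. The 2 cardiac markers (Tnnt2 and Myl7) were not called at EB D4, 1 was higher and 1 lower at EB D6, and 2 were lower at EB D8. The part of any of these markers in the level of Zfp57, or of the other genes named at these days, was not tested.

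In TET KO, Zfp57 differed most at EB D2, in the opposite direction. The TET WT libraries read 82.2, 85.1 and 89.4 RPKM, and the TET KO libraries 35.8 and 36.3, a 2.37-fold difference with no overlap (change -1.23, SE 0.06, adjusted p = 1.94e-06). The value that stood out was that of the parental line, since DNMT WT and DNMT KO at the same day lay between 29.3 and 31.5 RPKM, close to TET KO. TET WT exceeded DNMT WT by 1.48 (adjusted p = 4.63e-07) at EB D2, while over the other 6 conditions that difference ran from -0.5 to 0.45 and was not called. At EpiLC D2, where Zfp57 stood at 36.7 to 41.4 RPKM in TET WT and 25.9 to 30.9 in DNMT WT, centring brought it over the threshold. The naive markers moved the same way, at 219 to 246 RPKM in sum in TET WT, 77.8 to 78.1 in TET KO and 111 to 127 in DNMT WT, with 4 of 5 called lower in TET KO and 5 of 5 higher in TET WT than in DNMT WT; their part was not tested. At EB D4 Zfp57 was called higher in TET KO (17.6, 17.4 and 17.1 RPKM against 12.3, 8.4 and 14.4; change 0.58, adjusted p = 0.00561), but the call ended without TET WT replicate 2, the library that stood apart (0.37), after centring (0.29) and after quantile normalization. The primitive streak markers summed there to 643 to 667 RPKM in the knockout and 30.3 to 43.8 in its parental line, with 3 of 3 called higher. Of the 5 naive markers, 1 was called higher and 2 lower. Called lower were also 2 of 4 formative and primed, 2 of 3 endoderm and 1 of 4 blood markers. Of the 3 fibroblast markers 1 was higher, and 0 of the 2 cardiac markers were called. The part of these markers was not tested. At ESC D0 the TET KO libraries, with 113, 102 and 104 RPKM, lay above 83.3, 79.9 and 85.4 in TET WT by 0.36, below the size threshold.

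Tested directly, the effect of the DNMT deletion on Zfp57 minus that of the TET deletion was -0.83 in the ESCs and 1.23, 0.8, 2.22 and 1.7 on EB days 2, 4, 6 and 8, and it was called at these 5 conditions. On EB D2 the terms of this difference were 0 for the DNMT deletion and -1.23 for the TET deletion. At EB D4 the call ended without DNMT WT replicate 2 (0.79, adjusted p over the threshold) and with no filter on low genes.

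Zfp445 (ENSMUSG00000047036, chromosome 9:122844529-122866006), the second zinc finger gene of imprint control, kept a narrow range of 9.69 to 20.9 RPKM in group means. It was called higher in TET KO at EB D8, with 20.4, 20.1 and 21.9 RPKM against 13.9, 14.1 and 14.3 (change 0.55, adjusted p = 2.15e-06), and this ended after centring (0.39). In DNMT KO at EB D2 it was called lower from 10.3 and 15.2 RPKM against 17.8, 18.4 and 19.4 (change -0.54, adjusted p = 0.0408). The knockout libraries at EB D2 were far apart from each other, and the call ended without any of the 3 DNMT WT libraries or without DNMT KO replicate 2, with values from -0.58 to -0.28 over all settings that ended it. Within a library, Zfp57 stood at 4.51 to 8.38 times Zfp445 in the ESCs and at EpiLC D1, as group means. From EB D4 to EB D8 the ratio was 0.409 to 0.838 in TET WT, TET KO and DNMT WT and 2.49 to 2.94 in DNMT KO.

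Atrx (ENSMUSG00000031229, chromosome X:105797615-105929403), a chromatin remodeller, was called in 1 of its 14 knockout tests. In DNMT KO ESCs it read 11.5, 11 and 11 RPKM, below the 17.7 and 15.3 of DNMT WT (change -0.54, adjusted p = 0.000609), and without DNMT WT replicate 1 the change was -0.43 and was not called. Daxx (ENSMUSG00000002307, chromosome 17:33909414-33915590), its partner and the chaperone of H3.3, was not called in either knockout, with changes from -0.47 to 0.23. The lowest of these was in TET KO at EpiLC D2, where 11.6, 14.8 and 9.67 RPKM overlapped 14.2, 17.6 and 18.2; after centring it was called (-0.56).

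Ehmt1 (ENSMUSG00000036893, chromosome 2:24789928-24919614) and Ehmt2 (ENSMUSG00000013787, chromosome 17:34898469-34914052), the pair of euchromatic methyltransferases also known as GLP and G9a, were not called in either knockout. Changes of Ehmt1 ran from -0.32 to 0.4 and those of Ehmt2 from -0.41 to 0.22. In the ESCs Ehmt2 nevertheless did not overlap between the TET lines, with 20, 20.6 and 19.9 RPKM in TET KO and 27.5, 25.9 and 26.3 in TET WT (change -0.39, adjusted p = 2.27e-05). Centring took it over the threshold (-0.51). Other conditions also lacked overlap. Among them, DNMT KO was below DNMT WT at EpiLC D1 (32.2 to 33.1 against 41.9 to 43.4 RPKM) and EpiLC D2 (22.1 to 22.4 against 29.1 to 30.6). At EB D4 it was above (31.9 to 34.7 against 27.6 to 28.9). At EB D8 the effect of the DNMT deletion on Ehmt1 minus that of the TET deletion was called (-0.56), and this ended after centring (-0.36) and without TET KO replicate 2 (-0.5).

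Suv39h1, which trimethylates H3K9 around centromeres, was lower in the late embryoid bodies of both knockouts. At EB D6 the DNMT KO libraries read 10.4, 9.13 and 9.27 RPKM and the DNMT WT libraries 37.1, 35.7 and 37.1. The groups were 3.82-fold apart with no overlap (change -1.88, SE 0.06, adjusted p = 5.46e-11). At EB D8 the values were 14.7, 15 and 13.9 RPKM against 27, 26.3 and 25.2 (change -0.82, adjusted p = 1.57e-07). In TET KO at EB D8 they were 18.7, 16.8 and 20.4 against 31.5, 30.3 and 33.5 in TET WT, again without overlap (change -0.76, adjusted p = 8.06e-07). At EB D6 in TET KO the libraries, at 31.6, 33.6 and 28.8 RPKM, lay below 37.2, 36.2 and 36.2, but the change of -0.22 was below the size threshold. Lineage markers differed between the TET lines at EB D8: the blood markers summed to 14.4 to 25.2 RPKM in the knockout and 7490 to 8170 in its parental line, with 4 of 4 called lower, and the 3 endoderm markers were lower too. The naive markers summed to 44.2 to 57.3 and 29 to 31.3 RPKM, but 3 of the 5 were called higher and 2 lower. Called higher were also 4 of 4 formative and primed markers (48 to 59.6 RPKM in sum against 4.23 to 5.64), 3 of 3 primitive streak markers (34.3 to 37.8 against 1.53 to 3.73) and both cardiac markers, Tnnt2 and Myl7 (106 to 147 against 20.3 to 26.9). Their part in this and the other EB D8 changes of TET KO was not tested. The difference between the knockout effects at EB D6 was -1.66 (SE 0.08, adjusted p = 7.87e-09).

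At the start of differentiation the order of the TET lines was the reverse. In the ESCs Suv39h1 stood at 4.48, 5.19 and 4.97 RPKM in TET KO and 2.47, 2.62 and 2.49 in TET WT, a 1.93-fold difference (change 0.83, SE 0.08, adjusted p = 1.32e-05). At EpiLC D1 TET KO, with 5.84, 4.96 and 5.53 RPKM, was also higher than TET WT, with 3.36, 3.95 and 3.29 (change 0.56, adjusted p = 0.000479). By EpiLC D2 the groups overlapped (7.88, 7.99 and 7.35 against 8.1, 7.44 and 9.19 RPKM). DNMT KO ESCs, at 2.89, 2.4 and 2.78 RPKM, lay above the 1.94 and 1.97 of DNMT WT by 0.37, which is below the size threshold.

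The body of Suv39h1 is crossed on the other strand by Gm14820 (ENSMUSG00000087193, chromosome X:8042943-8074619, plus strand), a gene looked up after the values of Suv39h1 were seen. The libraries were stranded per the labels' protocols, but whether counting used the strand was not stated, and without it reads of the overlapping genes cannot be told apart. In the ESCs Gm14820 stood at 12.4 ± 0.315 RPKM in TET WT and 4.54 ± 0.273 in TET KO, the reverse of the order of Suv39h1. Its lowest group mean was 0.0687 ± 0.051 RPKM, in TET KO at EB D4, where Suv39h1 was at 15 ± 0.383 RPKM and not at its highest. At EB D6 Gm14820 read 3.2 ± 0.31 RPKM in DNMT KO and 0.472 ± 0.271 in DNMT WT, and at EB D8 2.57 ± 0.844 and 0.24 ± 0.13. No test of this gene was planned and its part in the level of Suv39h1 was not tested.

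**Figure D3:**
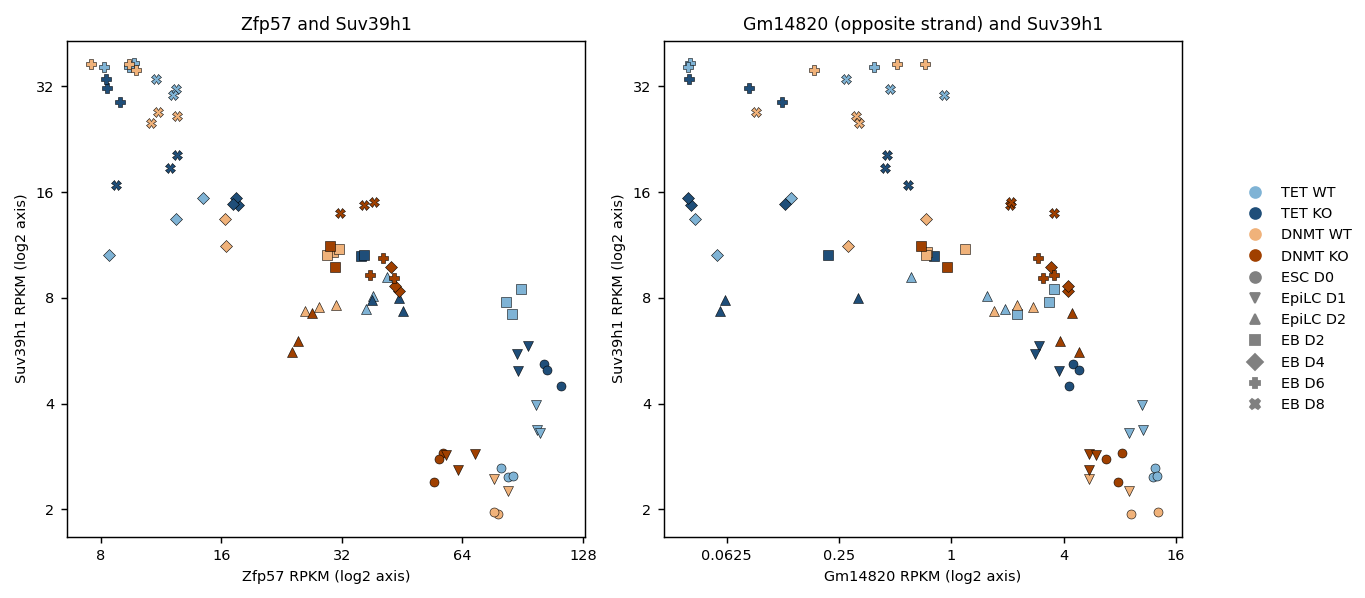
RPKM of Suv39h1 against that of Zfp57 (left) and of the opposite-strand gene Gm14820 (right) in the 79 libraries, both axes log2; colours give the line and symbols the condition. Libraries with high Suv39h1, at the upper left, are those of TET WT, TET KO and DNMT WT at EB D6 and EB D8, and the DNMT KO embryoid bodies lie lower and further right.

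Suv39h2 (ENSMUSG00000026646, chromosome 2:3455815-3475031), the other enzyme of the pair, went the opposite way at EB D8. DNMT KO held 10.2, 11.6 and 11.5 RPKM against 6.61, 5.72 and 5.27 in DNMT WT (change 0.87, SE 0.08, adjusted p = 1.01e-06). TET KO held 8.94, 9.18 and 10.3 against 6.16, 6.08 and 6.44 in TET WT (change 0.57, adjusted p = 8.05e-05), a call that ended after centring (0.41). Knockout and parental libraries did not overlap in either pair. At EB D4 Suv39h2 was not called in TET KO, at 10.8 to 11.3 RPKM against 11.2 to 16.2 in TET WT. Centring, which moved the median of all genes there by -0.298, made it a lower call. The ratio of Suv39h1 to Suv39h2 within a library at EB D8 was 5.1 ± 0.108 in TET WT, 4.49 ± 0.363 in DNMT WT, 1.96 ± 0.132 in TET KO and 1.32 ± 0.118 in DNMT KO. Parental and knockout libraries did not overlap in this ratio. In the ESCs it was 0.248 ± 0.00298, 0.271 ± 0.00933, 0.409 ± 0.0169 and 0.277 ± 0.0185 in the same order.

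**Figure D4:**
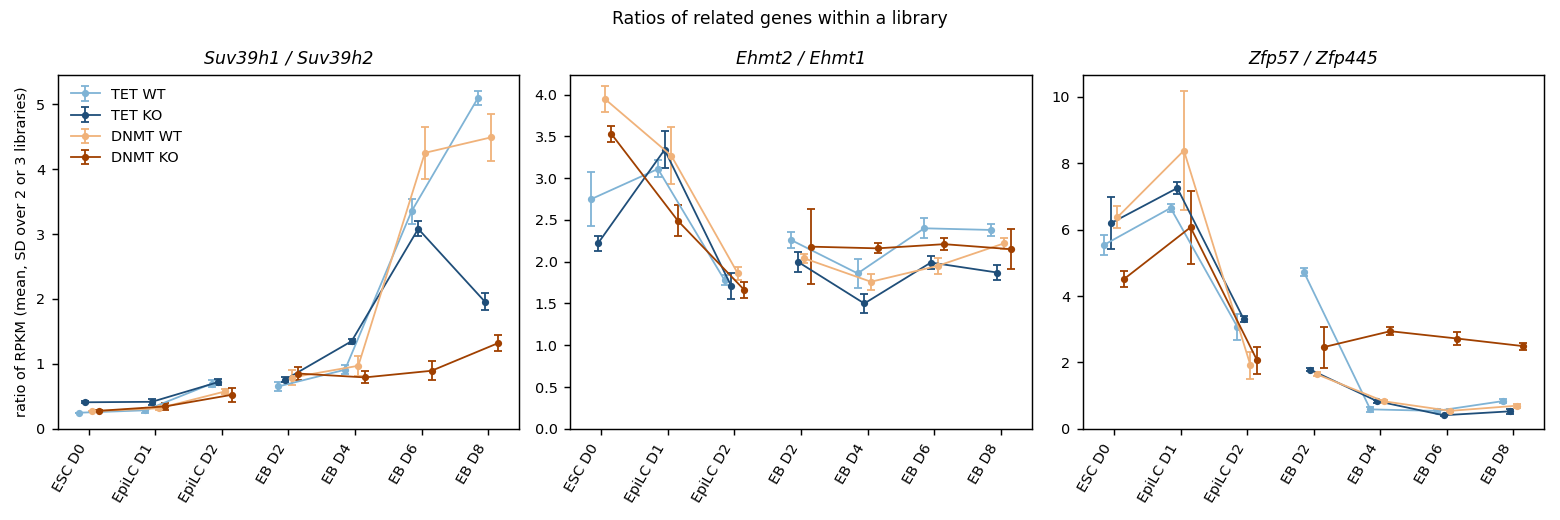
Ratio of RPKM within a library for Suv39h1 to Suv39h2, Ehmt2 to Ehmt1 and Zfp57 to Zfp445, as mean and SD over the 2 or 3 libraries of a group, by condition and line. At EB D8 the Suv39h1 to Suv39h2 ratio is 5.1 and 4.49 in the parental lines and 1.96 and 1.32 in the knockouts.

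The course of differentiation was tested at EpiLC D2, EB D4 and EB D8 against ESC D0 of the same line. Of 30 tests in a line, 17 were called in TET WT, 17 in TET KO, 16 in DNMT WT and 10 in DNMT KO. Of all tested genes, the share called at EpiLC D2, EB D4 and EB D8 was 54.6%, 41.8% and 57.3% in TET WT, 56.6%, 41.9% and 54% in TET KO, 36.4%, 46.1% and 61.2% in DNMT WT and 34.1%, 42.1% and 47.1% in DNMT KO. The members' counts in TET WT, TET KO and DNMT WT lie near these shares, and the 10 of 30 in DNMT KO below them. In TET WT the count was 20 without replicate 2 of EB D4. Centring moved the median of all genes at EB D8 by -0.266, -0.3, -0.306 and -0.261 in TET WT, TET KO, DNMT WT and DNMT KO, and at EpiLC D2 by 0.295 and 0.329 in TET WT and TET KO.

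Zfp57 fell and Suv39h1 rose in all 4 lines at EpiLC D2. On EB D4 the change of Zfp57 was -2.81 in TET WT (-2.6 without the library that stood apart), -2.58 in TET KO and -2.21 in DNMT WT, while in DNMT KO it was -0.36 and was not called. At EB D8, Zfp57 was 7.03-fold lower than in ESCs in TET WT, 9.69-fold lower in TET KO and 6.8-fold lower in DNMT WT, but 1.57-fold lower in DNMT KO (change -0.65, adjusted p = 2.46e-06; -0.44 and not called after quantile normalization). The response of DNMT KO minus that of DNMT WT was 1.86 at EB D4 (adjusted p = 2.36e-07) and 2.07 at EB D8 (adjusted p = 1.15e-10). Suv39h1 was 12.6-fold higher at EB D8 than in ESCs in TET WT and 13.4-fold in DNMT WT, and 3.81-fold and 5.42-fold in their knockouts. Its response was smaller in TET KO than in TET WT by 0.91, 0.63 and 1.59 at EpiLC D2, EB D4 and EB D8, and smaller in DNMT KO than in DNMT WT by 0.61, 0.8 and 1.2; all 6 were called, the EpiLC D2 value of DNMT KO not when either DNMT WT library of ESC D0 was left out, and the EB D4 value of TET KO was -0.77 without the library that stood apart. Each of these differences uses the ESC level as well as the later one, and in TET KO the raised ESC level of Suv39h1 enters all 3.

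Trim28 fell by EB D8 in every line, 2.33-fold in TET WT, 2.02-fold in TET KO, 3.06-fold in DNMT WT and 1.78-fold in DNMT KO, the last less than in its parental line by 0.79 (adjusted p = 7.3e-11). At EpiLC D2 it fell 2.46-fold in TET WT and 3.44-fold in TET KO, while in the DNMT lines, at 481 to 511 RPKM in DNMT WT and 418 to 438 in DNMT KO, it was not called against the ESCs. Ehmt1 rose by EB D8 in all 4 lines, between 1.52-fold in TET WT and 2.17-fold in TET KO, and after centring the calls in TET WT (0.32) and DNMT KO (0.47) ended. Atrx and Daxx fell by EB D8 in both parental lines, by 0.82 and 0.66 in TET WT and by 0.54 and 0.62 in DNMT WT; the Atrx call in DNMT WT ended without replicate 1 of its ESCs. The response of Atrx at EB D8 differed between DNMT KO and DNMT WT by 0.67 (adjusted p = 5.19e-06), with an ESC level in DNMT KO that was already low. Suv39h2 fell at EB D8 in TET WT (change -0.67) and was not called in the other lines, where the changes were -0.32, -0.28 and 0.18 in TET KO, DNMT WT and DNMT KO; centring brought TET KO (-0.62) and DNMT WT (-0.59) over the threshold.

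The response differed from that of the parental line in 4 of 30 tests in TET KO and 10 of 30 in DNMT KO. For all tested genes the share at EpiLC D2, EB D4 and EB D8 was 22.5%, 24.9% and 31.5% in TET KO and 4.33%, 18.4% and 41.9% in DNMT KO. With quantile normalization the count in TET KO was 10. The effect of the DNMT deletion minus that of the TET deletion, over the 7 conditions, was called in 12 of 70 tests, beside shares of all genes of 22.3%, 30.1%, 26.9%, 23.4%, 32.3%, 43.2% and 44.8% in order from ESC D0 to EB D8.

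The parental lines, from which the knockouts are read, differed from each other in 11 of 70 tests. The shares for all genes were 25.5%, 37.4%, 49.6%, 18.4%, 8.25%, 9.74% and 10.4% in the same order, and 6 of the 11 were at EpiLC D2, all lower in TET WT, where 27.6% of all genes were lower. There TET WT was lower than DNMT WT in Trim28 (141, 178 and 173 RPKM against 511, 481 and 485; change -1.59, adjusted p = 4.34e-07) and Setdb1 (change -1.24, adjusted p = 1.78e-05). Atrx, Daxx, Ehmt1 and Ehmt2 were also lower, by 0.83, 0.94, 0.7 and 0.78. These 6 calls held after centring, which moved the median of all genes in this comparison by 0.176 and added 1 higher call, that of Zfp57. Naive markers summed to 250 to 336 RPKM in TET WT and 74.5 to 87.8 in DNMT WT at EpiLC D2, with 4 of 5 called higher, and their part was not tested. At EpiLC D1, Trim28 and Daxx were lower in TET WT by 0.77 and 0.57, and Zfp445 and Suv39h2 higher by 0.6 and 0.71. The Zfp445 call ended without the unnumbered DNMT WT replicate (0.44), and with the replicate number as a block the calls of Daxx (-0.41) and Zfp445 (0.41) ended.

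A wider list of 40 genes of H3K9 methylation and H3.3, of which 38 were tested, covered HP1 proteins, partners of SETDB1, the HUSH complex and MORC proteins, relatives of Trim28, EHMT partners, H3K9 demethylases, histone chaperones and enzymes of H4K20 methylation. Over 7 conditions, TET KO had 50 calls in 266 tests (16 higher and 34 lower, and 9 and 45 after centring), beside 25.9% of all tests. DNMT KO had 36 of 266 (22 and 14), beside 16.8% of all tests. Both counts lie below the share of all genes. In TET KO the calls lay mostly in the epiblast-like cells, 12 of 38 at EpiLC D1 (28.2% of all genes) and 15 of 38 at EpiLC D2 (29.2%). In DNMT KO, 15 of 38 were called at EB D6 (38.7% of all genes) and 10 of 38 at EB D8 (41.8%). The count at EpiLC D2 in TET KO, with 12 of the 15 lower, is a larger share than that of all genes, and that at EB D8 in DNMT KO a smaller one. The counts at EpiLC D1 in TET KO and at EB D6 in DNMT KO are close to it. At the other conditions TET KO had 5 of 38 in the ESCs and 8, 4, 1 and 5 on EB days 2, 4, 6 and 8. Beside these stood 22.2%, 23.8%, 30.3%, 18.9% and 28.5% of all genes. DNMT KO had 1, 2, 1, 2 and 5 of 38 from ESC D0 to EB D4, beside 5.54%, 3.96%, 6.54%, 4.58% and 16.6%.

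Among the genes of this list, the demethylase gene Kdm3a had the largest change in TET KO, at 14.6 ± 1.02 RPKM against 38.7 ± 1.19 in TET WT at EpiLC D1 (change -1.38, adjusted p = 1.17e-07). The EHMT partner Cdyl (change -1.25), the HUSH subunit gene Fam208a (TASOR, change -1.21) and the histone chaperone gene Asf1b (4.51 ± 1.67 RPKM against 10.4 ± 0.896) fell at EpiLC D2. Asf1b was called lower in TET KO at all 7 conditions, and it lies on chromosome 8, whose genes had a median change between -0.43 and -0.21 in the same comparisons. In DNMT KO the H3K9 demethylase gene Kdm4c rose, to 27.5 ± 1.27 RPKM against 8.32 ± 0.898 at EB D6 (change 1.67, adjusted p = 3.91e-09) and by 1.53 at EB D8. Fam208a rose there too, by 1.56 at EB D6 and 1.25 at EB D8, as did the remodeller gene Smarcad1 at EB D6 (16.1 ± 0.207 RPKM against 6.78 ± 0.104). Pphln1, which encodes the HUSH subunit periphilin, fell at EB D4 (change -1.03), from 44.3 ± 1.19 to 21.4 ± 1.09 RPKM. All of these values had no overlap between the libraries compared.

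Over the 28 group means of log2(RPKM + 0.5), which share lines, conditions and the scaling of libraries, Zfp57 and Suv39h1 ran in opposite directions (Pearson r = -0.88, a description with no test). Trim28 ran with Daxx (r = 0.91) and Setdb1 with Atrx (r = 0.81), while Suv39h1 and Suv39h2 were unrelated (r = -0.07). Among 9906 candidate genes, the profile most like that of Zfp57 was that of H2-M5 (r = 0.951), which lies on the same chromosome 11625 bases away (chromosome 17:36984061-36989537). It was followed by Cobl, Gstp3, Sept1 and Cep55 (r = 0.939 to 0.935). For Suv39h1 the most alike were Mmp2 (r = 0.961), Mettl9, Gpsm1, Smo and Mapk3 (r = 0.955 to 0.95), and for Trim28 Tcof1 (r = 0.972), Uhrf1, Chtf18, Rbm27 and Cluh (r = 0.954 to 0.95).

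Ordered by mean, neighbouring groups mostly could not be separated. For Zfp57 and Suv39h1, libraries overlapped in 17 of the 27 neighbouring pairs of groups, for Trim28 in 16, and for the other 7 genes in 22 to 26. The top of the order of Zfp57 was TET KO ESCs at 106 RPKM, apart from TET WT at EpiLC D1 at 98.7, and its lowest 7 groups, from 11.8 down to 8.48 RPKM, were TET WT on EB days 4, 6 and 8, and DNMT WT and TET KO on EB days 6 and 8, each overlapping the next. The lowest level of Zfp57 in any DNMT KO group was 25.3 RPKM, at EpiLC D2. For Suv39h1 the top groups were DNMT WT and TET WT at EB D6, which overlapped at 36.6 and 36.5 RPKM, and the lowest were DNMT WT at EpiLC D1 (2.35) and ESC D0 (1.96), which did not overlap.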

How the data were processed

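Strand-specific RNA libraries with oligo-dT capture were made after column purification and DNase treatment, per the labels' protocols. The submitters' processing notes name HISAT2 2.1.0, Trim Galore 0.6.1, cutadapt 1.18 and the build GRCm38. How reads were counted, with which strand setting and which annotation, is not given in the sources used here. Deposited by the authors were log2 RPKM values, 1 column per library, in which genes with no read sit at the level of 0.9 reads. With GENCODE M21 exon lengths, 96.9% of values up to 20 reads were whole reads within 0.1, which gave the depths (7.76 to 13.89 M, median 11.16 M). Intervals cover the spread between libraries only.

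Of 35269 entries, 39 repeated an identifier and were left out. The 15267 genes that reached 1 RPKM in 2 or more libraries were fitted as log2(RPKM + 0.5), a scale that understates the change of low genes, with limma 3.58.1 in R 4.3.3 (eBayes with trend and robust settings), checked on simulated data. Knockout and line comparisons were fitted on the 4 genotypes at a condition, and comparisons with ESC D0 on the 4 genotypes at both conditions. Groups came from the labels; 1 column, of DNMT WT at EpiLC D1, could be tied to its group but to no numbered sample, and entered as an unnumbered replicate. Alternatives were other pseudocounts, filters, scalings, sample sets, a replicate block, leaving out each library and, chosen after seeing the data, voom on recovered reads.

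The members and lists were chosen with earlier results of these data known. Named genes are all members, up to 4 other pathway genes per knockout with the largest change among those called at a log2 change of at least 1, and, for the 3 members of widest range, the 5 most alike genes with a group mean of at least 5 RPKM and no predicted-gene name. Gm14820 and Gm42418 fall outside this rule.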

Additional observations from a re-analysis of the deposited data

Results flagged for a closer look

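Differences between 2 effects that passed limma's test of the difference itself are collected here as values. The effect of the DNMT deletion minus that of the TET deletion on Zfp57 was -0.83 in the ESCs (adjusted p = 6.42e-06). On EB days 2, 4, 6 and 8 it was 1.23, 0.8, 2.22 and 1.7 (adjusted p = 2.33e-05, 0.013, 3.38e-08 and 1.35e-06), and 1.01 on day 4 without the library that stood apart. For Suv39h1 it was -0.63 at EB D4 (adjusted p = 0.0305; -0.49 and not called without the library that stood apart) and -1.66 at EB D6 (7.87e-09), for Zfp445 -0.7 at EB D2 (0.021) and -0.75 at EB D8 (2.27e-06), for Setdb1 -0.52 at ESC D0 (1.82e-05), for Trim28 0.56 at EB D6 (1.86e-06) and for Ehmt1 -0.56 at EB D8 (9.11e-05).

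The response to differentiation in TET KO minus that in TET WT was -0.91, -0.63 and -1.59 for Suv39h1 at EpiLC D2, EB D4 and EB D8, and -0.57 for Suv39h2 at EB D4. Without the library that stood apart, the EB D4 values were -0.77 for Suv39h1 and -0.74 for Suv39h2. In DNMT KO minus DNMT WT it was -0.61, -0.8 and -1.2 for Suv39h1 at the same conditions, 1.86 and 2.07 for Zfp57 at EB D4 and EB D8, -0.5 and -0.55 for Suv39h2 at EpiLC D2 and EB D4, 0.54 and 0.67 for Atrx at EB D4 and EB D8, and 0.79 for Trim28 at EB D8. In each of these the knockout and its parental line enter with 2 or 3 libraries at each condition. Leaving out 1 library or changing a setting ended some of these calls. For the Suv39h2 response in TET KO on EB D4 this was TET WT replicate 1 (-0.49) or 3 (-0.48). In DNMT KO the Suv39h2 call ended on EpiLC D2 in 9 settings (-0.49 to -0.45). On EB D4 it ended without replicate 1 of the DNMT WT ESCs (-0.51) or of DNMT WT on EB D4 (-0.52). The Atrx response on EB D4 ended in 10 settings (0.43 to 0.55), among them the loss of any DNMT KO or DNMT WT library of that day. The difference between the deletions ended for Suv39h1 on EB D4 in 10 settings (-0.64 to -0.38), among them the loss of any TET KO library of that day. For Zfp445 on EB D2 it ended without DNMT KO replicate 2 (-0.44), without TET KO replicate 1 (-0.74) or 2 (-0.67), and with no filter on low genes (-0.7). Where the size was over 0.5, the adjusted p was over the threshold. Centring ended the calls of Setdb1 (-0.4), Ehmt1 (-0.36), Suv39h1 on EB D4 for the difference between the deletions (-0.38) and the Atrx response on EB D4 (0.5, just under the threshold). Quantile normalization ended those of Trim28 (0.31), of the same Suv39h1 difference (-0.45) and of the Suv39h2 response in DNMT KO on EpiLC D2 (-0.49).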

How the results depend on the processing

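Of 116 called changes of member genes, 88 kept direction and call under every setting run, 28 lost the call under at least 1, and none turned direction. Centring each library ended 14 of them, quantile normalization 9, no filter on low genes 5, a pseudocount of 1 RPKM 2 and fitting only the groups compared 1; a pseudocount of 0.1 RPKM, a stricter filter, 1 fit of all 79 libraries and voom on recovered reads ended none. Of the counts, the response of TET KO minus that of TET WT moved with quantile normalization, from 4 to 10 of 30. Leaving out 1 library at a time, the counts ran from 8 to 11 in TET KO and 8 to 11 in DNMT KO, 10 to 14 for the difference between the deletions and 10 to 12 between the parental lines. Responses ran from 17 to 20 in TET WT, 16 to 17 in TET KO, 15 to 17 in DNMT WT and 10 to 11 in DNMT KO, and their differences from 3 to 6 in TET KO and 7 to 11 in DNMT KO. For the wider list the counts ran from 46 to 53 in TET KO and 33 to 43 in DNMT KO. Where this left a group of DNMT WT, or of either knockout at EB D2, with 1 library, that library was assumed to vary like the other groups. Depth was not a limit for the members, which had at least 109 reads in each library.

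The replicate numbers gave little sign of pairing between a knockout and its parental line. Of 36 pairs of a knockout and a parental library with the same number and condition, 4 had a correlation of deviations over 0.1 (range -0.24 to 0.29, median 0.005). Libraries of TET WT and DNMT WT were not compared with each other in this way. With the replicate number as a block, 4 of the 116 calls were lost (Daxx, -0.41, and Zfp445 between the parental lines at EpiLC D1, Suv39h2 in the DNMT response at EpiLC D2, and Zfp445 in DNMT KO at EB D2), and the counts were 10 in TET KO, 8 in DNMT KO and 13 for the difference between the deletions.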
